A study of Homo sapiens with 15 samples.

Results

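Insulin-like growth factor (IGF) binding proteins are secreted carriers that hold IGF-I and IGF-II outside the cell, so that how much growth factor reaches its receptor depends on which carriers are present and how fast they are cleaved. The 8 genes described here were the rows of the deposited table with the symbols of 6 carriers (IGFBP2, IGFBP3, IGFBP4, IGFBP5, IGFBP6 and IGFBP7), a clearance receptor (IGF2R) and a carrier-cleaving protease (PAPPA), out of 25737 rows in all. Each symbol was found once. In U87MG glioblastoma cells the mRNAs of IGFBP4 and IGFBP3 were lower in the libraries of all 4 ID labels than in those labelled GFP. Transcripts of IGFBP6 and IGF2R were higher with all 4. IGFBP7 was higher with ID1, ID2 and ID3, PAPPA was higher with ID1, ID3 and ID4, and IGFBP2 and IGFBP5 were at or near 0. Leaving out certain single libraries lost the calls of IGFBP6 with ID1, IGF2R with ID1, ID2 and ID3, and IGFBP7 with ID1 and ID2. IGFBP7 with ID4 missed the threshold but passed in some other settings.

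The libraries came from U87MG, an established human glioblastoma line grown in medium with 10% serum and collected 24 h after lentivirus was added. The 5 groups of 3 libraries carried the labels GFP (control lentivirus), ID1, ID2, ID3 and ID4 (lentivirus to overexpress the named gene), and all groups, GFP included, had received a lentivirus. ID proteins are helix-loop-helix proteins that lack a DNA-binding region and keep E proteins off the E-box motif CANNTG. The promoter that drives each insert, the amount of virus and the share of cells transduced were not given in the sources used here, and the labels do not say whether the 3 libraries of a group came from separate cultures, so p-values measure the spread between these libraries, which may be technical.

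IGFBP4 inhibits IGF action and is cut, when IGF is bound, by pappalysin-1, the product of PAPPA. Stanniocalcins STC1 and STC2 and the proform of eosinophil major basic protein (PRG2) inhibit that cut. IGFBP3 is the main carrier of IGF in serum, where it forms a ternary complex with the acid-labile subunit (IGFALS). IGFBP6 prefers IGF-II, IGFBP5 binds extracellular matrix, IGFBP2 is widely studied in glioma, and IGFBP7 is a secreted relative with low affinity for IGF. IGF2R takes IGF-II to lysosomes for degradation and sorts lysosomal enzymes that carry mannose 6-phosphate.

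To show where the motif of E proteins lies, promoters were taken for 5 members whose mRNA changed with most labels. They are the 250 bases before the start in RefSeq (GRCh38.p14, gene orientation, 5′ to 3′), which matched 7 of the 8 symbols. No promoter was matched for IGFBP7, which was called with ID1, ID2 and ID3 but is therefore not shown. Capitals mark each CANNTG.
IGFBP4 promoter, chr17:40443200-40443449 (+ strand): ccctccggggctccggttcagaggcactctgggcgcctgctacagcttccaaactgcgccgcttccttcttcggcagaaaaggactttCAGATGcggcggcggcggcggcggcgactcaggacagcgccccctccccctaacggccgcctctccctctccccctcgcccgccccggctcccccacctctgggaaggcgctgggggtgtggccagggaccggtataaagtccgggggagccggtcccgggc
IGFBP3 promoter, chr7:45921273-45921522 (- strand): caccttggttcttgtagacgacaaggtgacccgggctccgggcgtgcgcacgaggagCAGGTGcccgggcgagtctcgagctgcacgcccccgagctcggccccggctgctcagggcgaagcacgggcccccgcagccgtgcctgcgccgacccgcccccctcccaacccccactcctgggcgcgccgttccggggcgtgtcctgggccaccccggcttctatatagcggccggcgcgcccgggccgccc
IGFBP6 promoter, chr12:53097417-53097666 (+ strand): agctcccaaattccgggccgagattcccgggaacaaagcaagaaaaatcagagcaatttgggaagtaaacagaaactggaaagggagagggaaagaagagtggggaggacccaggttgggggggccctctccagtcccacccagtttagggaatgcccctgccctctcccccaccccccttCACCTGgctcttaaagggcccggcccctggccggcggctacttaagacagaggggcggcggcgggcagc
IGF2R promoter, chr6:159968832-159969081 (+ strand): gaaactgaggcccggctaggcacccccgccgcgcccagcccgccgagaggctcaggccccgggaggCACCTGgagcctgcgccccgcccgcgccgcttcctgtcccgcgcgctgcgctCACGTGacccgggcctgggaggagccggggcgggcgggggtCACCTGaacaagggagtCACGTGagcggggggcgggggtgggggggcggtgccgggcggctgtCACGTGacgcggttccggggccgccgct
PAPPA promoter, chr9:116153541-116153790 (+ strand): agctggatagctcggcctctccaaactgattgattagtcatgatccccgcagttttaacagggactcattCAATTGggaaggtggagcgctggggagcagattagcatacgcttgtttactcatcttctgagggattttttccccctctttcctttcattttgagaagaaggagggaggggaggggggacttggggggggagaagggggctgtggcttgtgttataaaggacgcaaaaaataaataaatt

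IGFBP4, IGFBP3, IGFBP6 and PAPPA each held 1 match, whose first base lay 162, 193, 69 and 180 bases before the start. IGF2R held 5 matches, 3 of them CACGTG and 2 of them CACCTG, IGFBP2 held 3 and IGFBP5 held 0. CANNTG reads the same on both strands in this degenerate form, and 61.8% of 35116 RefSeq promoters of the same length held at least 1. The palindromic STAT motif TTCNNNGAA was found in 0 of the 7 members' windows and in 6.57% of all promoters. A match or its absence is a description of these letters only.

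Counts per library summed to 11089044 to 15148979, and 3 counts, the floor used here, corresponded to 0.198 to 0.271 CPM, the unit used below, which is a gene's count scaled to a common library total. ID4 mRNA was seen at 0 to 2 counts with GFP and at 2479 to 3110 counts with the ID4 label. ID3 was 221 ± 8.33 CPM (SD, n = 3) with GFP and 313 ± 11.4 with the ID3 label, but it was also higher with the ID2 label (287 ± 27.8, log2 difference 0.40, adjusted p = 7.18e-05), and ID2 against ID3 was not called (adjusted p = 0.415). ID1 was 344 ± 6.96 with GFP and 249.7 ± 3.60 with the ID1 label, and ID2 was 85.7 ± 2.81 with GFP and 44.9 ± 1.28 with the ID2 label. These falls were not particular to the label of the same name. ID2 mRNA was lower than GFP with ID1, ID2, ID3 and ID4 (log2 difference -1.33, -0.92, -0.90 and -1.26, adjusted p = 7.10e-10 at the highest). ID1 mRNA was also lower with the ID4 label (-0.30, adjusted p = 0.00131) and was not called with ID2 or ID3. All libraries are therefore named by their labels only, and every direction given is that of the labelled libraries. VIM (41595 to 68815 counts), CD44 (6214 to 8741) and NES (223 to 394) were present in every library. The other listed glioma markers were low: GFAP, S100B and SOX2 had 0 to 4 counts and OLIG2 had 2 to 11. CDKN2A, deleted in this line, had 0. Of the 6 markers of other cell types, PTPRC, PECAM1, EPCAM, CDH1 and RBFOX3 had 0 to 15 counts, and MBP had 58 to 63 with GFP and 7 to 26 with the ID labels. Library 3 of the ID2 label stood apart from its own group. The chi-square of its counts against libraries 1 and 2, per gene, was 12.6 and 13.2. The other 13 within-group pairs gave 2.39 to 6.05. Differences of the tested members between ID2 and GFP are therefore also given without it, and other ID2 results only in part.

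Of the 8 genes, 6 passed the filter on low values and were tested with edgeR's quasi-likelihood test, with p-values adjusted by the Benjamini-Hochberg method over the 12870 genes tested. A call means an adjusted p under 0.05. Against GFP, 6 of the 6 were called with the ID1 label (22.1% of all genes tested were called), 5 with ID2 (35.1%), 6 with ID3 (28.6%) and 5 with ID4 (21.6%). In each comparison 2 of these were lower, IGFBP3 and IGFBP4, where 9.73%, 16.7%, 13.5% and 9.51% of all genes were lower with ID1, ID2, ID3 and ID4. The rest were higher, 4, 3, 4 and 3 of them, where 12.4%, 18.5%, 15.1% and 12.1% of all genes were higher. The CPM of the labelled libraries did not overlap that of the GFP libraries for 6, 3, 6 and 5 of the 6, and for 37.1%, 42.3%, 40.6% and 37.1% of all genes tested. The median size of the log2 difference over the 6 was 0.41, 0.46, 0.53 and 0.58, and over all genes tested it was 0.16, 0.21, 0.18 and 0.16. The members were chosen with earlier results of these data known, and the genes set beside them were not matched for level. These shares are therefore a description, not a test of the set. Leaving out ID1 library 2 left 3 calls with ID1, and leaving out ID2 library 2 left 3 with ID2. The 4 comparisons use the same 3 GFP libraries, so they are not independent of each other. In bulk RNA, fewer cells that express a gene and less of its RNA per cell cannot be told apart.

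**Figure D1:**
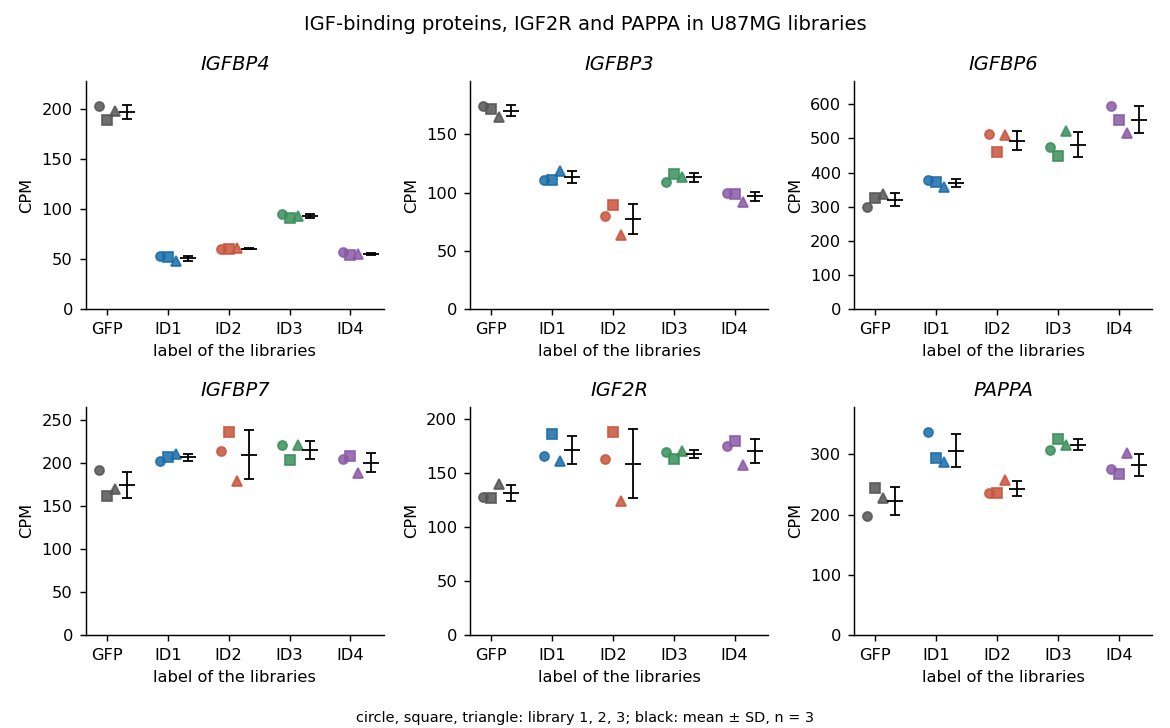
CPM (linear axis from 0) of the 6 tested genes in each of the 15 libraries, grouped by label, with the mean ± SD of the 3 libraries in black. IGFBP4 and IGFBP3 lie below all GFP libraries with every ID label, while IGFBP7 and IGF2R of the ID2 label spread from the GFP level to well above it, with library 3 lowest.

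IGFBP4 showed the largest differences of the 6 against GFP with every ID label. The gene lies at chr17:38599702-38613977 (GRCh37, plus strand), and its 3′ end, where these libraries are primed, is in exon 4 at chr17:38612701-38613977. It was read at 202.3, 188.9 and 197.9 CPM in GFP libraries 1 to 3. The libraries labelled ID1 had 52.5, 52.2 and 47.7 CPM, those labelled ID2 had 60.4, 59.8 and 60.7, those labelled ID3 had 94.9, 91.1 and 92.6, and those labelled ID4 had 56.6, 53.9 and 54.7. Each library with an ID label was below each GFP library, and within every group the 3 values were close together. IGFBP4 was 3.90-fold lower with ID1 (log2 difference -1.96, SE 0.06, adjusted p = 1.61e-16), 3.22-fold lower with ID2 (-1.69, SE 0.06, adjusted p = 4.69e-16), 2.14-fold lower with ID3 (-1.10, SE 0.05, adjusted p = 1.05e-12) and 3.57-fold lower with ID4 (-1.84, SE 0.06, adjusted p = 3.31e-16).

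IGFBP4 also set the labels apart from each other. Ordered by level, the labels ran ID1, ID4, ID2, ID3, GFP, with means of 50.8 ± 2.69, 55.1 ± 1.37, 60.3 ± 0.503, 92.9 ± 1.92 and 196 ± 6.85 CPM (SD, n = 3). The neighbours ID1 and ID4 did not pass the test (log2 difference -0.13, 95% interval -0.25 to -0.01, adjusted p = 0.260), nor did ID2 and ID4 (0.15, 95% interval 0.03 to 0.27, adjusted p = 0.0761). IGFBP4 was lower with ID2 than with ID3 (-0.59, SE 0.06, adjusted p = 1.92e-07), and the distance between ID1 and ID3 was larger (-0.86, SE 0.06, adjusted p = 7.90e-10). It was also lower with ID1 than with ID2 (-0.28, SE 0.06, adjusted p = 0.00153) and higher with ID3 than with ID4 (0.74, SE 0.06, adjusted p = 1.04e-08). Without ID2 library 3 the difference between ID2 and GFP was -1.70.

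IGFBP3, the serum carrier, was lower with all 4 labels as well. It lies at chr7:45951844-45961473 (GRCh37, minus strand), with its last exon, exon 5, at chr7:45951844-45953433. GFP libraries had 173.9, 171.7 and 164.9 CPM. With ID1 the values were 110.6, 110.5 and 118.9, with ID2 79.5, 89.3 and 63.5, with ID3 109.1, 116.1 and 113.6, and with ID4 99.2, 98.7 and 92.2. No ID-labelled library reached the GFP range, and the ID2 libraries were the lowest and the most spread. The gene was 1.52-fold lower with ID1 (log2 difference -0.60, SE 0.08, adjusted p = 4.98e-06), 2.17-fold lower with ID2 (-1.12, SE 0.08, adjusted p = 2.96e-10), 1.53-fold lower with ID3 (-0.61, SE 0.08, adjusted p = 3.61e-06) and 1.76-fold lower with ID4 (-0.82, SE 0.08, adjusted p = 1.03e-07). Leaving out ID2 library 3, the lowest of all, gave -1.002 for ID2 (adjusted p = 1.17e-12).

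The order of the labels was not that of IGFBP4. IGFBP3 was lowest with ID2 and next lowest with ID4, and ID1 and ID3 lay close together below GFP. It was lower with ID2 than with ID1 (ID1 minus ID2 0.52, SE 0.08, adjusted p = 8.67e-05), than with ID3 (-0.51, SE 0.08, adjusted p = 1.33e-04) and than with ID4 (-0.30, SE 0.08, adjusted p = 0.0110). Without ID2 library 3 these differences were 0.40, -0.39 and -0.19, of which the last had an adjusted p of 0.0487. The call between ID2 and ID4 was lost when ID4 library 1 was left out (-0.28, adjusted p = 0.0514) and in a fit of only these 2 groups (adjusted p = 0.0639). ID1 and ID3 differed by 0.01 (95% interval -0.15 to 0.17). ID4 did not pass the test against ID1 (0.22, adjusted p = 0.143) or ID3 (0.21, adjusted p = 0.104), though its libraries lay below all of theirs. Both comparisons passed without ID2 library 3 (adjusted p = 0.0216 and 0.0152) and in fits of only the 2 groups compared (adjusted p = 0.0128 and 0.0179). ID3 against ID4 also passed with no filter (adjusted p = 0.0331).

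**Figure D2:**
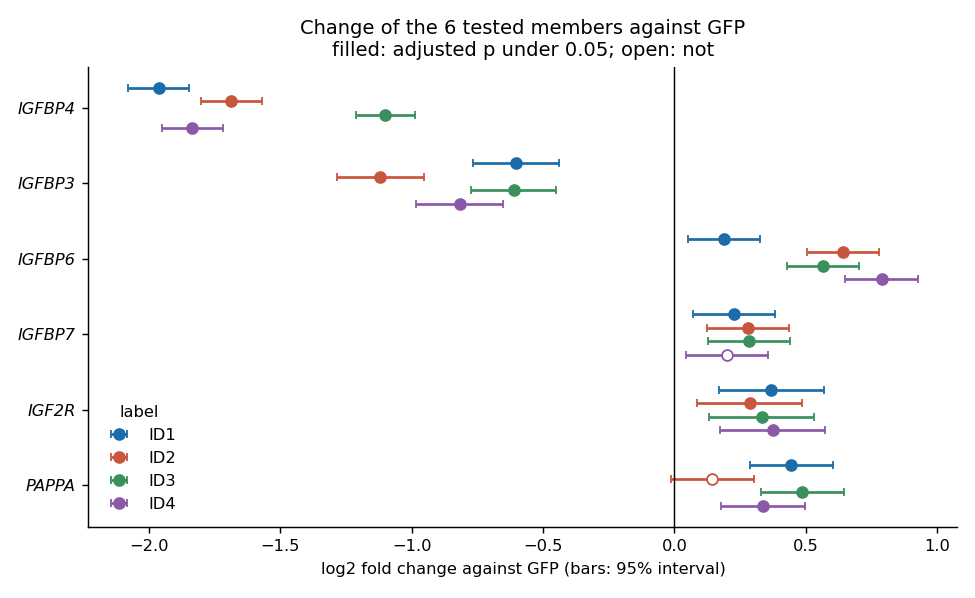
Log2 fold change against GFP (x axis) of the 6 tested genes with each label, with 95% intervals as bars. Filled points passed the adjusted p threshold and open points did not. IGFBP4 and IGFBP3 lie between -1.96 and -0.60, and the other 4 genes between 0.14 and 0.79.

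IGFBP6, the carrier that prefers IGF-II, rose with all 4 labels and most with ID4. The gene lies at chr12:53491220-53496129 (GRCh37, plus strand) and ends in exon 4 at chr12:53495829-53496124. GFP libraries had 299.6, 325.4 and 335.9 CPM. With ID1 the values were 377.8, 372.3 and 356.3, with ID2 512.0, 460.4 and 509.1, with ID3 474.9, 448.2 and 520.4, and with ID4 593.8, 554.2 and 515.6. All 12 ID-labelled libraries exceeded the highest GFP library, narrowly so for ID1. The log2 difference was 0.79 with ID4 (SE 0.07, adjusted p = 1.16e-08), 0.64 with ID2 (SE 0.07, adjusted p = 1.10e-07), 0.57 with ID3 (SE 0.07, adjusted p = 1.10e-06) and 0.19 with ID1 (SE 0.07, adjusted p = 0.0454). Without ID2 library 3 the ID2 difference was 0.61 (adjusted p = 3.96e-08). The ID1 call was not firm. It was lost with replicate numbers as a block and when any 1 of 5 libraries was left out (GFP library 1 or 2, or ID1 library 1, 2 or 3), with adjusted p-values of 0.0560 to 0.217.

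The ID1 label stood below the other labels in IGFBP6. It was lower than ID2 (-0.45, SE 0.07, adjusted p = 4.25e-05), than ID3 (-0.38, SE 0.07, adjusted p = 8.20e-04) and than ID4 (-0.60, SE 0.07, adjusted p = 2.78e-06). ID2 and ID3, neighbours in level, did not pass (0.07, 95% interval -0.06 to 0.21), and ID2 against ID4 did not pass (-0.15, adjusted p = 0.125). ID3 was below ID4 (-0.22, SE 0.07, adjusted p = 0.0310), although their libraries overlapped and the call was lost without ID3 library 1 or 2 or ID4 library 1 or 2 (adjusted p = 0.0739 to 0.181).

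IGFBP7, the low-affinity relative, changed by less. It lies at chr4:57896939-57976551 (GRCh37, minus strand), and its last exon, exon 5, is at chr4:57896939-57897502. GFP libraries had 191.3, 161.3 and 169.6 CPM. With ID1 the values were 201.9, 206.4 and 210.2, with ID2 213.3, 235.6 and 179.0, with ID3 220.7, 203.2 and 221.1, and with ID4 205.0, 208.0 and 187.8. ID1 and ID3 lay above all GFP libraries, whereas ID2 library 3 and ID4 library 3 were within the GFP range. The log2 difference was 0.23 with ID1 (SE 0.07, adjusted p = 0.0320), 0.28 with ID2 (SE 0.07, adjusted p = 0.00524), 0.28 with ID3 (SE 0.07, adjusted p = 0.00660) and 0.20 with ID4, which missed the threshold (95% interval 0.04 to 0.36, adjusted p = 0.0632).

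Single libraries decided several of these IGFBP7 calls. The ID1 call was lost when GFP library 2 or 3 or any ID1 library was left out (adjusted p = 0.0573 to 0.157), and the ID2 call without ID2 library 2 (0.19, adjusted p = 0.0514). Without ID2 library 3 the ID2 difference was 0.38 (adjusted p = 3.68e-05), and the ID4 difference passed (0.20, adjusted p = 0.0116), as it did without GFP library 1 or ID4 library 3 (adjusted p = 0.0308 and 0.0484). The ID4 difference also passed with all libraries in other settings. These were no filter, upper-quartile factors and a fit of only the ID4 and GFP libraries (adjusted p = 0.0125, 0.0435 and 0.0225). None of the 6 comparisons between ID labels called IGFBP7, and their log2 differences ran from -0.06 to 0.08. Exons of POLR2B, on the opposite strand, lie within the last 1000 bases of IGFBP7. POLR2B, named after its values were seen, differed from GFP by 0.07, -0.04, 0.07 and 0.05 with no call.

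IGFBP2 and IGFBP5 did not pass the filter. They are neighbours on chromosome 2, at chr2:217497551-217529159 (plus strand) and chr2:217536828-217560272 (minus strand) in GRCh37. IGFBP2 had 1, 2 and 0 counts with GFP, 2, 2 and 0 with ID2, 2, 2 and 0 with ID4, and 0 in the 6 libraries of ID1 and ID3. Group totals were 0 to 4 counts, at or close to the floor of 3 counts, so no difference in IGFBP2 was detectable at this depth.

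IGFBP5, the matrix-bound carrier, had 0, 1 and 1 counts with GFP, 7, 4 and 6 with ID1, 6, 11 and 1 with ID2, 2, 4 and 5 with ID3, and 4, 3 and 0 with ID4. Summed over a group, these were 2, 17, 18, 11 and 7 counts. Per count of the group's libraries, the ratio to GFP was 7.75 with ID1 (exact 95% interval 1.84 to 69.1), 8.07 with ID2 (1.93 to 71.7), 5.02 with ID3 (1.10 to 46.6) and 3.58 with ID4 (0.682 to 35.3). These intervals cover counting error only. When every gene with a count was tested, IGFBP5 passed with ID1 and ID2 (adjusted p = 0.0467 and 0.0234) and not with ID3 or ID4 (0.183 and 0.440). No library held more than 11 counts of it, and the GFP libraries held 1 at most.

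IGF2R, the receptor that clears IGF-II, rose modestly with all 4 labels. The gene spans chr6:160390114-160534539 (GRCh37, plus strand), with the last of 48 exons at chr6:160525706-160532536. GFP libraries had 127.5, 126.5 and 139.5 CPM. With ID1 the values were 166.0, 186.3 and 161.3, with ID2 162.7, 187.7 and 124.3, with ID3 169.5, 163.1 and 169.9, and with ID4 174.5, 179.1 and 157.4. All libraries of ID1, ID3 and ID4 were above GFP, whereas ID2 library 3 was below all GFP libraries. The log2 difference was 0.37 with ID1 (SE 0.10, adjusted p = 0.00742), 0.29 with ID2 (SE 0.10, adjusted p = 0.0240), 0.33 with ID3 (SE 0.10, adjusted p = 0.0124) and 0.37 with ID4 (SE 0.10, adjusted p = 0.00712).

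The ID2 value of IGF2R turned on single libraries. It was 0.43 without ID2 library 3 (adjusted p = 2.83e-05) and 0.15 without ID2 library 2 (adjusted p = 0.220), and the call was also lost without GFP library 1 or 2 or ID2 library 1 (adjusted p = 0.0910, 0.0810 and 0.0672) and in a fit of only the ID2 and GFP libraries (adjusted p = 0.0771). The ID1 call was lost without ID1 library 2 (adjusted p = 0.0561), and the ID3 call without GFP library 1 or 2 (adjusted p = 0.0520 and 0.0505). No comparison between ID labels called IGF2R, and the log2 differences ran from -0.09 to 0.08. The 4 labels ran from 158 ± 31.9 CPM with ID2 to 171 ± 13.3 with ID1 in which no pair passed the test. AIRN, the antisense RNA inside IGF2R, had 0 to 5 counts per library.

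PAPPA, the protease that cuts IGFBP4, rose with ID1, ID3 and ID4. It spans chr9:118916070-119164600 (GRCh37, plus strand), with the last of 22 exons at chr9:119158788-119164600. GFP libraries had 197.4, 243.7 and 226.9 CPM. With ID1 the values were 337.0, 294.8 and 287.1, with ID2 235.5, 236.4 and 257.9, with ID3 308.0, 325.8 and 315.3, and with ID4 275.2, 267.7 and 302.3. The ID2 libraries overlapped the GFP libraries, and all others were above them. The log2 difference was 0.45 with ID1 (SE 0.08, adjusted p = 1.52e-04), 0.49 with ID3 (SE 0.08, adjusted p = 4.58e-05) and 0.34 with ID4 (SE 0.08, adjusted p = 0.00245). With ID2 it was 0.14 (95% interval -0.01 to 0.30, adjusted p = 0.152), which passed only when GFP library 2 was left out (0.22, adjusted p = 0.0481) and was 0.09 without ID2 library 3 (adjusted p = 0.378).

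The difference between labels was itself tested. PAPPA was higher with ID1 than with ID2 (0.30, SE 0.08, adjusted p = 0.00717) and lower with ID2 than with ID3 (-0.34, SE 0.08, adjusted p = 0.00347), and ID2 against ID4 did not pass (-0.19, adjusted p = 0.0816) but did without ID2 library 3 (-0.25, adjusted p = 0.0252). The ID1 against ID2 call was lost without ID1 library 1 (0.22, adjusted p = 0.0614). Among the labels above ID2 no pair passed, with ID4 at 282 ± 18.2, ID1 at 306 ± 26.8 and ID3 at 316 ± 8.94 CPM (adjusted p = 0.231 to 0.791). PAPPA-AS1 is an antisense gene inside PAPPA. No exon of another gene lies within the last 1000 bases of PAPPA, and exons were not compared over the rest of the gene. The strand used in counting was not given in the sources used here, and whether the pair shared reads was not tested. The log2 differences of PAPPA-AS1 were 0.46, 0.19, 0.47 and 0.34 for ID1 to ID4 (adjusted p = 5.59e-05, 0.0454, 3.86e-05 and 0.00163).

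Between ID labels, 4 of the 6 tested genes were called for ID1 against ID2 (18.6% of all genes), 2 for ID1 against ID3 (9.18%), 1 for ID1 against ID4 (4.87%), 3 for ID2 against ID3 (15%), 1 for ID2 against ID4 (18.6%) and 2 for ID3 against ID4 (11.3%). IGFBP4 accounted for 4 of these calls, IGFBP6 for 4, IGFBP3 for 3 and PAPPA for 2. Without ID2 library 3, ID4 against GFP called 6 genes, ID1 against ID4 called 2, ID2 against ID4 called 2 and ID3 against ID4 called 3. The ID2 against ID4 count was 0 without ID4 library 1, and that of ID3 against ID4 was 1 without ID3 library 1 or 2 or ID4 library 1 or 2. The common dispersion, the shared measure of spread, was 0.00463 with that library and 0.00312 without it.

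The members were also read beside the genes next to them on the chromosome, since a difference shared by a whole stretch would show there. For IGFBP4, 0 of the 20 nearest tested genes differed from GFP as far in the same direction, with any label, and their medians were -0.12 to -0.08. For IGFBP3 the 20 nearest had medians of -0.06 to 0.06, and 1 of them went further with each label, the adjoining carrier gene IGFBP1. IGFBP6 lay among genes that were also higher, with medians of 0.16, 0.31, 0.18 and 0.22 for ID1 to ID4 over the 20 nearest and of 0.17, 0.20, 0.14 and 0.18 over 634 tested genes of chromosome 12. Of its 20 neighbours, 8 were at or beyond its own difference with ID1, 0 with ID2, 2 with ID3 and 1 with ID4. The part of this shift in IGFBP6 was not tested. The neighbours of IGF2R had medians of 0.11 to 0.16, with 2 to 8 of 20 at or beyond it. Those of IGFBP7 had medians of -0.15 to 0.07 and 0 to 3 of 20, and those of PAPPA medians of -0.15 to 0.04 and 3 to 5 of 20. The neighbours of PAPPA included PAPPA-AS1, which lies inside it. PAPPA-AS1 was among those beyond PAPPA with ID1 and ID2 (0.46 and 0.19), not with ID3 or ID4.

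**Figure D3:**
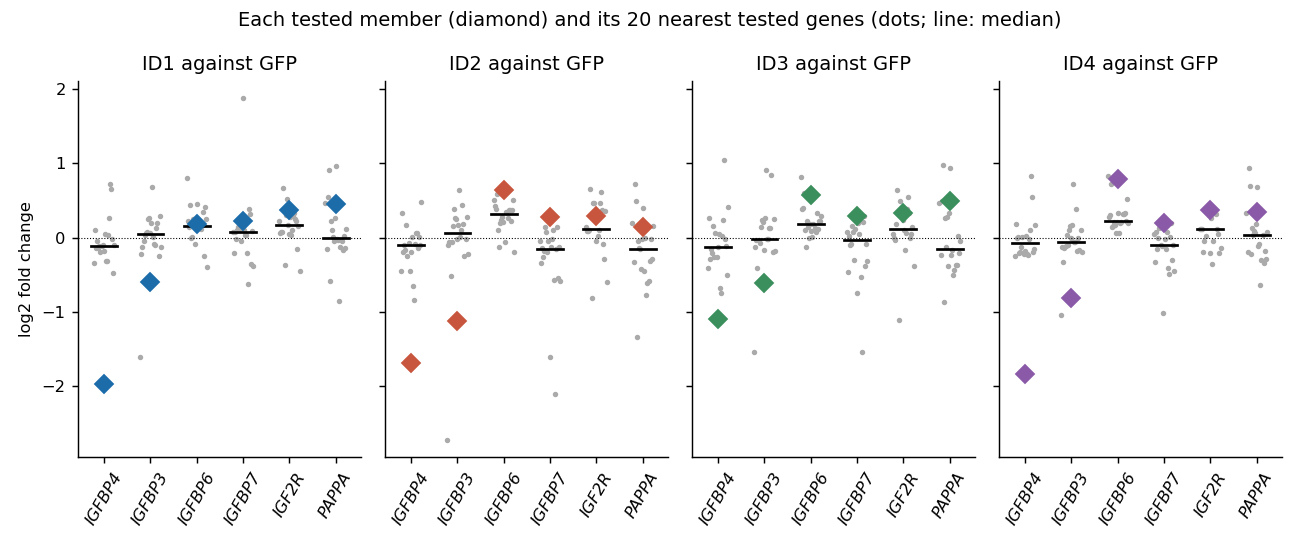
Log2 fold change against GFP (y axis) of each tested gene (diamond) and of its 20 nearest tested genes (dots, with their median as a line), 1 panel per label. The IGFBP4 diamond lies below all of its dots in every panel, while the IGFBP6 diamond sits among dots whose median is above 0.

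To place the members beside related genes, 47 further genes were listed by role. All were in the table and 36 of them were tested. The list was wider than IGF signalling: 8 of the tested genes had an IGFBP-like domain and 4 belonged to mannose 6-phosphate sorting. With ID1, 13 were higher and 4 lower, with ID2 13 and 4, with ID3 15 and 4, and with ID4 9 and 4. That is 47.2%, 47.2%, 52.8% and 36.1% of the 36, beside 22.1%, 35.1%, 28.6% and 21.6% of all genes. Of these calls, genes with an IGFBP-like domain gave 7, 4, 5 and 5. Those of mannose 6-phosphate sorting gave 2, 2, 2 and 1. This list too was chosen with earlier results of these data known, so the shares are a description only. Without ID2 library 3 the counts were 13 and 5, 14 and 5, 16 and 5, and 10 and 4.

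Ligands were at or near 0. IGF1 had 0 to 5 counts per library, IGF2 0 to 1 and INS 0, and none was tested. Of the 4 tested receptors besides IGF2R, IGF1R, the signalling receptor of both IGFs, and LRP1, a scavenger receptor that also binds IGFBP3, rose with all 4 labels. IGF1R had 3.98 ± 0.791 CPM with GFP (43 to 59 counts per library), 6.75 ± 0.651 with ID1, 6.57 ± 0.527 with ID2, 5.94 ± 0.723 with ID3 and 10.0 ± 0.878 with ID4. The log2 difference was 0.75, 0.75, 0.56 and 1.33 (adjusted p = 0.00186, 0.00121, 0.0148 and 2.16e-06), and IGF1R was higher with ID4 than with ID1, ID2 or ID3 (adjusted p = 0.0219, 0.00675 and 0.00173). LRP1 had 187 ± 15.5 CPM with GFP and 245 ± 21.7, 311 ± 27.8, 311 ± 17.5 and 296 ± 16.5 with the ID labels, log2 differences of 0.37 to 0.75 (adjusted p = 6.51e-04 at the highest). INSR, the insulin receptor, was not called with any label (-0.07 to 0.18). The fourth, TMEM219, a receptor for IGFBP3 named after its values were seen, was lower with ID4 (-0.22, SE 0.08, adjusted p = 0.0487) and not called with ID1, ID2 or ID3 (-0.20, 0.03 and -0.19, adjusted p = 0.0591, 0.792 and 0.0612). Without ID2 library 3 it was also called lower with ID1 and ID3 (adjusted p = 0.0332 and 0.0358).

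Both tested inhibitors of pappalysin were lower with all 4 labels, whereas PAPPA itself was higher with ID1, ID3 and ID4. STC2 had 2635, 2828 and 2715 CPM in the GFP libraries. It had 1451 to 1561 with ID1, 1197 to 1281 with ID2, 1508 to 1601 with ID3 and 1212 to 1254 with ID4, with no overlap with GFP. The log2 difference was -0.89 with ID1, -1.11 with ID2, -0.84 with ID3 and -1.15 with ID4 (SE 0.05 each, adjusted p = 6.23e-12, 7.30e-14, 1.41e-11 and 1.34e-13). STC1 fell by less, at -0.30, -0.39, -0.34 and -0.22 (adjusted p = 4.57e-04, 1.39e-05, 8.62e-05 and 0.00698). PRG2 had 0 to 9 counts and was not tested. The second pappalysin, PAPPA2, had 7 to 24 counts per library and was not called (-0.83 to -0.29). Among the 4 tested proteases ADAM12, which also cuts carriers, rose with every label (0.19, 0.16, 0.45 and 0.18, adjusted p = 0.0185, 0.0272, 3.01e-06 and 0.0236), but the ID2 value lost its call without ID2 library 3 (0.11, adjusted p = 0.129).

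**Figure D4:**
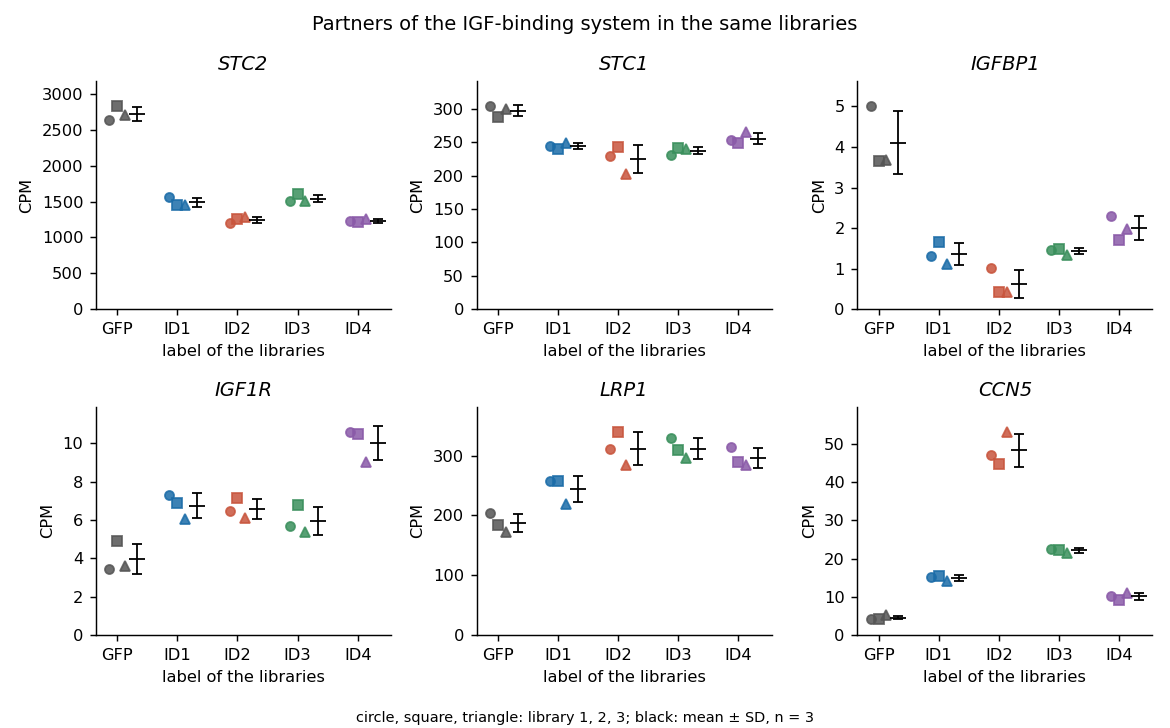
CPM (linear axis from 0) in each library of 6 listed genes that changed the same way with all 4 labels, with the mean ± SD of 3 libraries in black. STC2, STC1 and IGFBP1 are below GFP with every ID label, and IGF1R, LRP1 and CCN5 are above it.

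Of the other carriers, IGFBP1, the insulin-regulated carrier and neighbour of IGFBP3, fell from 4.11 ± 0.772 CPM with GFP to 1.36 ± 0.265, 0.617 ± 0.349, 1.43 ± 0.0766 and 1.99 ± 0.294 with ID1 to ID4. Its log2 differences were -1.61, -2.72, -1.54 and -1.04 (adjusted p = 6.04e-05, 1.96e-07, 7.46e-05 and 0.00321). They rest on 44 to 71 counts per GFP library and 6 to 30 per ID-labelled library, with 14, 6 and 6 for ID2. Proteins that share the IGFBP-like domain were called higher for 7, 4, 5 and 5 of 8, where 12.4%, 18.5%, 15.1% and 12.1% of all genes tested were, and lower for 0. CCN5 rose from 4.54 ± 0.488 CPM to 14.9 ± 0.737, 48.3 ± 4.31, 22.1 ± 0.633 and 10.1 ± 1.02 (log2 differences of 1.70, 3.43, 2.26 and 1.15, adjusted p = 1.03e-06 at the highest). CCN3 (0.36 to 0.74) and CRIM1 (0.23 to 0.39) rose with every label too (adjusted p = 0.0242 and 0.00634 at the highest). CCN3 and CCN5 were listed under their older symbols NOV and WISP2. Signal adaptors and effectors, such as the IRS and AKT genes, gave 2, 4, 5 and 0 calls of 13, or 15.4%, 30.8%, 38.5% and 0%, beside 22.1%, 35.1%, 28.6% and 21.6% of all genes. M6PR, the smaller mannose 6-phosphate receptor, rose with all 4 labels (0.40 to 0.45, adjusted p = 0.00164 at the highest).

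For each tested member the pair of genes with the most similar log2 CPM over the 15 libraries was taken, as a description. IGFBP4 was nearest to PIH1D1 (Pearson r = 0.970) and ZNF395 (0.965), and IGFBP3 to ERRFI1 (0.960) and TNFRSF10D (0.953). For IGFBP6 these were FOXJ2 (0.937) and FAM129A (0.932), the former on the same chromosome. IGFBP7 was nearest to CKAP4 (0.958) and PLAU (0.922), IGF2R to TTYH3 (0.907) and TAB2 (0.900), and PAPPA to its antisense partner PAPPA-AS1 (0.946) and to INHBA (0.913). The 15 libraries fall into 5 groups that share a label, so these values follow group means as much as libraries. Between members the values ran from -0.79 for IGFBP3 and IGFBP6 to 0.81 for IGFBP7 and IGF2R, and IGFBP3 and IGFBP4 gave 0.79.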

How the data were processed

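RNA of U87MG cells was made into QuantSeq 3′ mRNA libraries and processed by a company against hg19 (GRCh37). The submitters' processing notes name Bowtie2 and BWA; the counting tool, its strand setting and the annotation are not given in the sources used here. The authors deposited raw counts per gene and, beside them, log2 values normalized between libraries. A label named each of the value columns, and 0 columns were unused. A 3′ library gives about 1 tag per transcript, so CPM (counts divided by all counts of the library) was not scaled by length and levels were not compared between genes. Replicate pairs differed beyond sampling noise, so 3 libraries were counted per group.

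The counts entered edgeR 4.0.16 (R 4.3.3; TMM factors 0.978 to 1.026, 1 mean per group over 15 libraries) on the 12870 genes in the upper 50% by mean deposited log2 value (3.22 or more), with the Benjamini-Hochberg method and a threshold of 0.05. The rule of the study's methods, a 2-fold change and an unadjusted p, was an alternative, since counts allow a count test. Standard errors came from the log2 difference and its F value. Tests were tried on simulated data. The text names all 8 members, listed ligands, receptors and inhibitors fixed by name, listed genes called the same way with all 4 labels, and the 2 most similar genes per member. The members and gene lists were chosen with earlier results of these data known. Gene positions came from GENCODE 44 lifted to GRCh37, which placed 11733 tested symbols. Alternatives were other filters, upper-quartile factors, DESeq2 1.42.0, limma 3.58.1 with trend, only the 2 groups compared, replicate numbers as a block, a 1.5-fold minimum and each library left out. Leaving out ID2 library 3 in every comparison was added after the data were seen. Replicate numbers did not pair the libraries.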

Additional observations from a re-analysis of the deposited data

How the results depend on the processing

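IGFBP3 and IGFBP4 kept direction and call against GFP with all 4 labels under every other filter, scaling, tool and block, in fits of only 2 groups, with a 1.5-fold minimum and without any 1 library. The 2-fold rule of the study's methods kept IGFBP4 with all 4 labels but IGFBP3 only with ID2. Of 876 log2 differences recomputed for the tested members, 817 kept direction and call, 27 lost the call, 15 gained it and 17 changed sign. Every sign change came from leaving out 1 library in an uncalled comparison between ID labels. The ranges that follow cover all recomputed fits, not only those without 1 library. For ID1 against ID2 they were -0.15 to 0.036 for IGFBP7 and -0.061 to 0.22 for IGF2R. For ID1 against ID3 they were -0.025 to 0.036 for IGFBP3, -0.030 to 0.078 for IGF2R and -0.12 to 0.0040 for PAPPA. For ID1 against ID4 they were -0.015 to 0.053 for IGFBP7 and -0.073 to 0.039 for IGF2R. For ID2 against ID3 they were -0.092 to 0.094 for IGFBP7 and -0.18 to 0.097 for IGF2R. For ID2 against ID4 they were -0.0077 to 0.18 for IGFBP7 and -0.23 to 0.052 for IGF2R. Leaving out 1 library gave 3 to 6 calls with ID1, 3 to 5 with ID2, 5 to 6 with ID3 and 5 to 6 with ID4 against GFP, and 3 to 4 for ID1 against ID2, 2 for ID1 against ID3, 1 to 2 for ID1 against ID4, 3 for ID2 against ID3, 0 to 2 for ID2 against ID4 and 1 to 3 for ID3 against ID4. Under the rule of the study's methods, 2 members passed with ID1 (IGFBP4 and IGFBP5, the latter on 2 GFP counts in all), 2 with ID2, 1 with ID3 and 1 with ID4 against GFP, and 0 in each of the 6 comparisons between ID labels. With a 1.5-fold minimum, 2, 3, 2 and 3 passed against GFP, and 0 passed for ID1 against ID2, 1 for ID1 against ID3, 1 for ID2 against ID3, 0 for ID2 against ID4 and 1 for ID3 against ID4. These rules ask for a larger change by construction. With only the 2 groups compared in the fit, 2 passed for ID1 against ID4 and 0 for ID2 against ID4, and 2 passed for ID2 against ID4 on the upper 25% of genes or with no filter. The cause of these shifts was not tested.

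Replicate numbers did not pair the libraries: deviations from the group means correlated at -0.02 on average (-0.25 to 0.24, 30 pairs) between libraries of equal number and at 0.01 between others. With replicate numbers as a block, IGFBP6 with ID1 lost its call (log2 difference 0.19, adjusted p = 0.0608), and the other member calls were the same. Depth limits IGFBP2 and IGFBP5, for which a library held 11 counts at most.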

Other observations

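IGFALS, the acid-labile subunit that joins IGFBP3 in the serum complex, was listed with the pathway but did not pass the filter, and is named here after its values were seen. It had 0 counts in each of the 3 GFP and the 3 ID1-labelled libraries, 1, 1 and 0 with ID2, and 1, 1 and 0 with ID4. The ID3-labelled libraries had 57, 34 and 34 counts, or 3.95, 2.42 and 2.54 CPM.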
